A study of Sus scrofa with 6 samples.

Results

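Cells in which the genes of committed skeletal muscle were open were picked from single-cell ATAC-seq libraries of pig somites and myotomes. A cell was chosen when it had between 2000 and 30000 counts, had a count in at least 4 of 13 marker windows, and carried at least 3 times as many counts in these windows as its library's mean share would give at its total. A window was the gene body plus 2 kb upstream, on the Sscrofa11.1 assembly, and the markers were MYOG, MYOD1, MYF5, MYF6, MYMK, CHRNA1, CKM, ACTC1, ACTA1, TNNI1, KLHL41, SMYD1 and SMTNL1. Of 58809 cells within the count limits, 1780 met the rule and are called muscle-open cells here; the remaining 57029 are the other cells of the same libraries.

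The embryos were either purebred Tibetan (ZZ) or Duroc × Tibetan crosses (DZ), and were collected 18 (E18), 21 (E21) and 28 (E28) days into gestation. Somites were dissected at the earlier pair of stages, myotomes at E28. Each of the 6 libraries pooled 5 embryos of 1 sow and held a whole dissociated tissue with no sort for muscle cells. There was 1 library for each stage and breed, so the ZZ and DZ libraries served as the 2 samples of a stage, and stage and tissue cannot be told apart at E28. A count is a Tn5 cut site inside a peak, and the peaks had been called in each library separately. Muscle-open and other cells of a library shared the same peaks, and they are therefore compared within each library.

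Somites are the embryonic segments from which trunk muscle arises. Progenitors that carry PAX3 and PAX7 switch on the myogenic regulatory factors MYF5, MYOD1, MYOG and MYF6, which bind short DNA motifs called E-boxes, and then leave the cell cycle, fuse, and build sarcomeres and neuromuscular junctions. Accessible chromatin at a gene does not show that the gene is transcribed, and regulatory regions can open before the gene is expressed.

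By the rule as given, muscle-open cells made up a larger share of the later libraries. They made up 1.34% of 11243 cells in E18 ZZ (exact 95% binomial interval 1.14% to 1.57%) and numbered 131 of 10073 in E18 DZ (1.30%, 1.09% to 1.54%). At E21 they numbered 254 of 9286 in ZZ (2.74%, 2.41% to 3.09%) and 266 of 9347 in DZ (2.85%, 2.52% to 3.20%). At E28 they numbered 398 of 9410 in ZZ (4.23%, 3.83% to 4.66%) and 580 of 9450 in DZ (6.14%, 5.66% to 6.64%). The shares of the 3 stages did not overlap, and the intervals of ZZ and DZ overlapped at E18 and E21 and not at E28. With 1 library per stage and breed these shares were not tested, and the intervals cover counting error alone. The same kind of rule was also run on lists of other tissues, which differ in their number of genes. Among the other cells a single list was met by 0.216% (sclerotome and cartilage) to 1.48% (epithelial) in E18 ZZ. In E18 DZ it was 0.241% to 1.44%, in E28 ZZ 0.133% to 0.988% and in E28 DZ 0.0902% to 1.06%. The E18 shares of muscle-open cells lay within the range of these lists, and the E28 shares above it. The median count per cell was 11500 in muscle-open against 10901.5 in other cells of E18 ZZ, and 16344 against 9509 in E21 DZ, the widest gap; a deeper cell meets the count of windows more easily. After every cell was thinned to 4000 counts the shares in ZZ and DZ fell to 0.631% and 0.538% for E18, to 1.29% and 1.39% for E21, and to 2.52% and 5.64% for E28, and the stages kept their order; cells under 4000 counts were left out of this count. Of the cells that met the rule after thinning, 43 of 68 in E18 ZZ and 30 of 51 in E18 DZ had met it with all counts, against 365 of 438 in E28 DZ. With cells chosen on the first 6 markers listed above alone, in at least 2 windows, the shares were 4.73%, 4.78%, 4.88%, 5.21%, 6.34% and 6.61% (ZZ then DZ, E18 to E28). On the other 7 markers alone, in at least 2 windows, they were 5.75%, 5.08%, 5.82%, 5.18%, 5.76% and 8.19%. In the latter choice the shares of the stages overlapped, so the order of the stages depended on the markers. Between any pair of libraries 135 to 189 barcodes were shared, and in 3 pairs 1 shared barcode was muscle-open in each library.

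**Figure D1:**
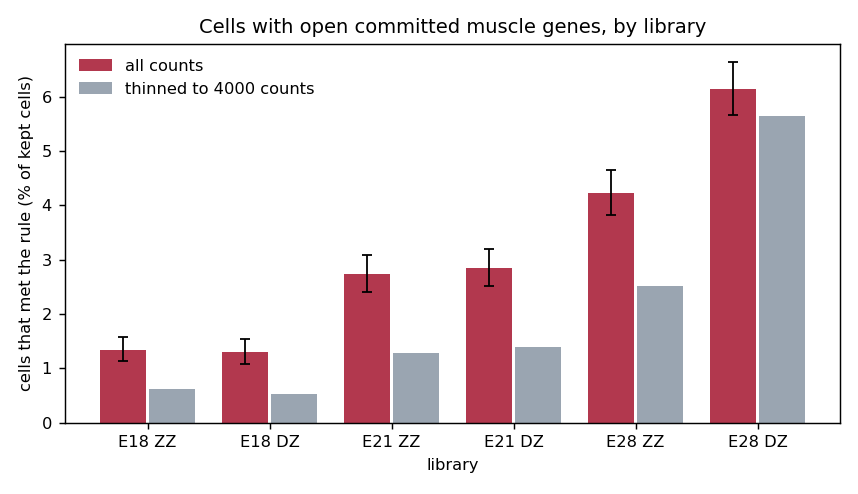
Share of cells that met the rule in each of the 6 libraries (percent of kept cells), with all counts (red bars, exact 95% binomial intervals) and after thinning to 4000 counts (grey bars). The share lay between 1.30% and 1.34% at E18, at 2.74% and 2.85% at E21, and at 4.23% and 6.14% at E28.

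The 13 marker windows chose the cells, so their values are given as a description. MYMK, which codes for the membrane protein myomaker needed for myoblast fusion, had a count in 77.5%, 67.2%, 79.5%, 68.4%, 70.1% and 76.2% of muscle-open cells (ZZ then DZ at each stage, from E18 to E28). It was also the most widespread marker among the other cells, at 18.2% to 32.9%. CHRNA1, the alpha subunit of the muscle acetylcholine receptor, had a count in 10.6% and 14.5% of the muscle-open E18 cells, 48.8% and 56.4% of those of E21, and 61.1% and 67.4% of those of E28. MYOG, the regulatory factor of terminal differentiation, had a count in 18.5% and 22.9% of the E18 cells, 38.2% and 53.0% of the E21 cells and 51.5% and 52.9% of the E28 cells. KLHL41, a kelch protein of the sarcomere, went from 6.6% and 3.8% at E18 to 31.2% and 39.5% at E28. MYMK thus chose cells about as often at each stage. TNNI1 (slow troponin I) had a count in 70.2% and 77.1% of the E18 cells and in 51.2% to 55.1% of the later ones, and CKM (muscle creatine kinase) in 43.7% and 48.9% against 30.7% to 41.3%. The bases of called peaks inside a window differed between libraries, with 377 and 287 for KLHL41 at E18 against 1069 and 1569 at E28. They were 1267 and 1199 against 3603 and 4770 for CHRNA1, and 4990 and 5975 against 3102 and 3451 for TNNI1. For MYOG they were 2895 and 1974 against 1896 and 2215. The part of the called bases in these percentages was not tested. Cells with exactly 4 windows, the lowest number that the rule allows, made up 64.2% of the muscle-open cells in E18 ZZ, 55% in E18 DZ and 30.7% in E21 ZZ. Cells with counts in at least 2 of the 6 regulator and junction windows (MYOG, MYOD1, MYF5, MYF6, MYMK, CHRNA1) and at least 2 of the 7 contractile and enzyme windows made up 60.3% in each E18 library and 72.1% to 80.7% later.

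**Figure D2:**
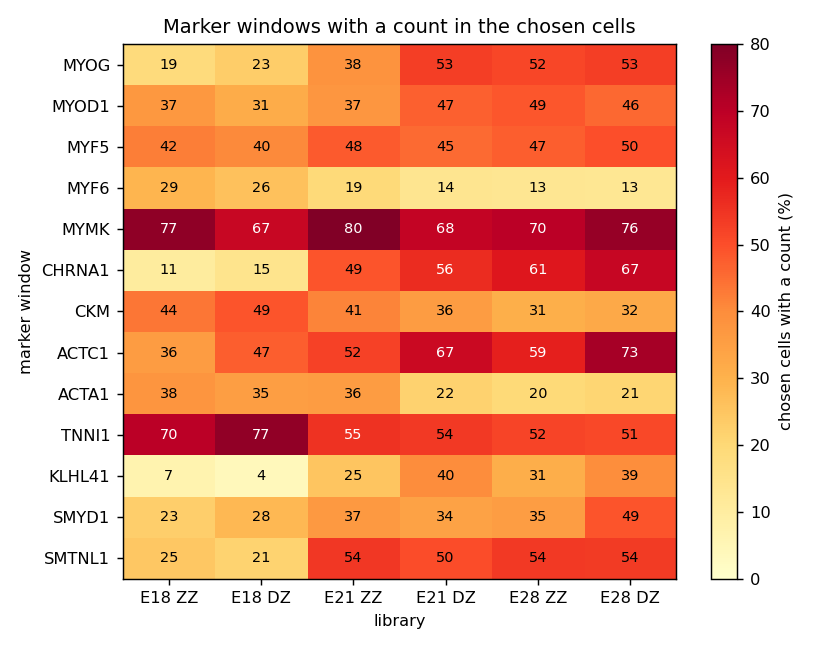
Percent of muscle-open cells with at least 1 count in each of the 13 marker windows that chose them (rows of the grid), in each library (columns), with the percent printed in each field and shown by colour. CHRNA1, MYOG, KLHL41 and SMTNL1 had a count in a smaller percent of the E18 cells than of the E21 and E28 cells. TNNI1, CKM and MYF6 were highest at E18. The bases of called peaks inside a window differed between libraries.

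Other windows than the markers were then used to check the label. The sarcomere list, with the markers and everything within 100 kb of them left out, held 28 genes. Its summed level, in CPM, the counts scaled to a fixed total for each class and library, was 1171 against 1010 in E18 ZZ and 1217 against 1028 in E18 DZ (muscle-open against other cells). It was 1659 against 918 in E21 ZZ, 1528 against 862 in E21 DZ, 1550 against 898 in E28 ZZ and 1947 against 1009 in E28 DZ. Muscle-open cells were higher in each library, by 1.16 and 1.18 times at E18 and by 1.73 to 1.93 times later, so the muscle label rested on much smaller differences at E18. The smooth muscle list was higher by 1.24 and 1.21 times at E18, no less than the sarcomere list, and by 1.19 to 1.37 times later. The fusion and junction list was at 1.02 and 1.16 times at E18. At E18 the label was therefore not borne out more strongly by skeletal than by smooth muscle genes. Cells just inside the rule, with exactly 4 windows, had 1085 and 1093 CPM at E18, against 1257 and 1174 for E21 and 1284 and 1802 for E28. Cells just outside it, with exactly 3 windows and the same minimum ratio, had 1051 and 1177 CPM at E18. They had 1244 and 1082 for E21 and 1200 and 1764 for E28. Summed levels just inside and just outside the limit thus lay close together. Whether the cells form a continuous range or a mixture was not tested.

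Counts were summed over the muscle-open and the other cells of each library and compared with edgeR's quasi-likelihood test, with the library as a block and Benjamini-Hochberg adjustment over all windows. In such sums a higher value can come from more cells with the window open or from more counts in each, and these cannot be told apart. Across all stages, 3702 of 22078 gene windows differed (16.8%), 2167 of them higher (9.82%) and 1535 lower (6.95%) in muscle-open cells. Within a stage, 25 windows were higher (0.113%) and 1 lower (0.00453%) at E18, 2523 higher (11.4%) and 1763 lower (7.99%) at E21, and 3630 higher (16.4%) and 3873 lower (17.5%) at E28. With an equal number of 131 muscle-open cells drawn from each library, 4, 2779 and 5242 windows differed at E18, E21 and E28. Across stages, 1084 windows differed without E21 DZ, 1266 without E28 ZZ, 1422 without E21 ZZ and 2109 without E28 DZ. When the cells were chosen on the 6 regulator and junction windows alone, 765 windows differed, and on the 7 contractile and enzyme windows alone 32, all higher, with 6190 at an unadjusted p under 0.05. In the latter choice no gene of the sarcomere, coupling, fusion and junction, regulator or progenitor lists passed, and TTN had 1.84 (adjusted p = 0.064). In the former choice 7 of 27, 7 of 15, 5 of 12, 8 of 23 and 5 of 13 genes of these lists were higher, beside 2.93% of all windows.

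The sarcomere genes outside the marker windows had the highest median difference of the muscle lists. Of 27 tested, 17 were higher and none lower across stages, with a median log2 difference of 0.88 beside −0.03 over all windows, of which 9.82% were higher. At E21 19 were higher, beside 11.4% of all windows, and at E28 20 were higher and 1 lower, beside 16.4% and 17.5%. TTN (chromosome 15, 84226953 to 84501320), the giant protein that spans the sarcomere from disc to centre, had 20.3 CPM against 13.9 in E18 ZZ and 32.0 against 16.9 in E18 DZ. It had 35.8 against 7.86 in E21 ZZ, 40.7 against 9.17 in E21 DZ, 45.1 against 4.70 in E28 ZZ and 67.3 against 5.75 in E28 DZ. Muscle-open cells were higher in all 6 libraries and the classes did not overlap, since the lowest muscle-open value, 20.3, was above the highest of the other cells, 16.9. The log2 difference was 2.25 ± 0.36 (SE, adjusted p = 0.0039) across stages, and 0.77 (adjusted p = 0.22), 2.23 and 3.47 at E18, E21 and E28.

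ACTN2, the alpha-actinin that anchors thin filaments at the Z-disc, had 24.7 CPM against 24.0 in E18 ZZ and 21.4 against 20.9 in E18 DZ, 39.2 against 13.3 and 53.2 against 11.9 at E21, and 91.5 against 13.8 and 132 against 23.6 at E28. The 2 classes were level at E18 and apart at the later stages, and the difference was 1.74 ± 0.34 on the log2 scale (adjusted p = 0.0082, and 0.051 without E21 DZ). UNC45B, a chaperone that folds muscle myosin, was higher by 1.78 ± 0.21 (adjusted p = 0.0013) and DES, the intermediate filament desmin, by 1.36 ± 0.17 (adjusted p = 0.0018), each in all 6 libraries. MYL4, the myosin light chain of embryonic muscle and atrium, was higher by 1.88 ± 0.36 (adjusted p = 0.0074) in 5 of 6 libraries and had 9.86 against 11 CPM in E18 ZZ. NEB (nebulin), MYH7 (slow myosin), TNNT1 (slow troponin T) and TPM2 (beta-tropomyosin) were higher by 1.39, 1.10, 1.14 and 0.96. Genes of fast fibres were mixed. TNNC2 (fast troponin C) was higher by 1.26 ± 0.29 (adjusted p = 0.016), in peaks wholly shared with a non-coding gene, and did not pass without E21 ZZ, E21 DZ or E28 ZZ. MYLPF had 0.21 (adjusted p = 0.13), TNNI2 0.52 (adjusted p = 0.091) and TNNT3 −0.25 (adjusted p = 0.50), and TNNT3 was lower at E28 by −1.08 (adjusted p = 1.1e-05). The MYLPF and TNNI2 windows shared 89% and 95% of their counts with neighbouring genes. MYBPC1 (0.00, adjusted p = 0.98) and TPM1 (0.23, adjusted p = 0.053) did not pass. Without E21 DZ, 10 sarcomere windows passed, and without E21 ZZ 12.

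Genes that couple the action potential to calcium release were higher as well, 12 of 15 tested and none lower beside 9.82% and 6.95% of all windows, with a median of 0.64. CASQ2 was lower at E28 (−0.64), as were 17.5% of all windows; without E21 DZ 7 passed and without E21 ZZ 8. ATP2A1, the calcium pump of fast muscle's sarcoplasmic reticulum, had 93.2 CPM against 52.6 and 73.0 against 47.1 at E18, 96.1 against 41.3 and 99.1 against 37.0 at E21, and 125 against 41.6 and 113 against 39.2 at E28. Every muscle-open value was above every value of the other cells, and the difference was 1.28 ± 0.13 (adjusted p = 7.0e-04). It was the 1 gene of this list past the threshold at E18, with 0.76 (adjusted p = 0.013). RYR1, the calcium release channel, was higher by 1.38 ± 0.22, SRL (sarcalumenin) by 1.30 ± 0.20 and JSRP1, a junctional protein of the reticulum, by 1.2 ± 0.20. ATP2A2, the pump of slow and heart muscle, had 0.07 (adjusted p = 0.56), and the calsequestrin CASQ2 −0.35 (adjusted p = 0.11), which turned to 1.70 with promoters alone.

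Of 12 genes of fusion and the neuromuscular junction, 7 were higher and none lower across stages, beside 9.82% and 6.95% of all windows, with a median of 0.85. LRP4 was lower at E28 (−0.30), as were 17.5% of all windows. CDH15 (M-cadherin, an adhesion protein of myoblasts) had 47.7 CPM against 39.8 and 42.7 against 35.7 at E18, 99.9 against 31.1 and 118 against 27.9 at E21, and 106 against 26.6 and 144 against 42.4 at E28. The lowest muscle-open value was just above the highest of the other cells, and the difference was 1.49 ± 0.24 (adjusted p = 0.0039). RAPSN (rapsyn, which clusters acetylcholine receptors) was higher by 2.60 ± 0.48, from low levels of 4.93 to 21.9 CPM against 1.21 to 5.06. CHRND and CHRNG, the delta and gamma receptor subunits, were higher by 1.35 ± 0.21 and 0.88 ± 0.11, although 95% of the CHRND counts lay in peaks that the window of PRSS56 also took. DOK7, an activator of MUSK signalling, was higher by 0.98 ± 0.15. MUSK itself, the receptor kinase of the junction, was higher by 1.19 ± 0.25 (adjusted p = 0.011), in peaks wholly shared with a non-coding gene, and did not pass without E21 ZZ, E21 DZ or E28 ZZ.

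**Figure D3:**
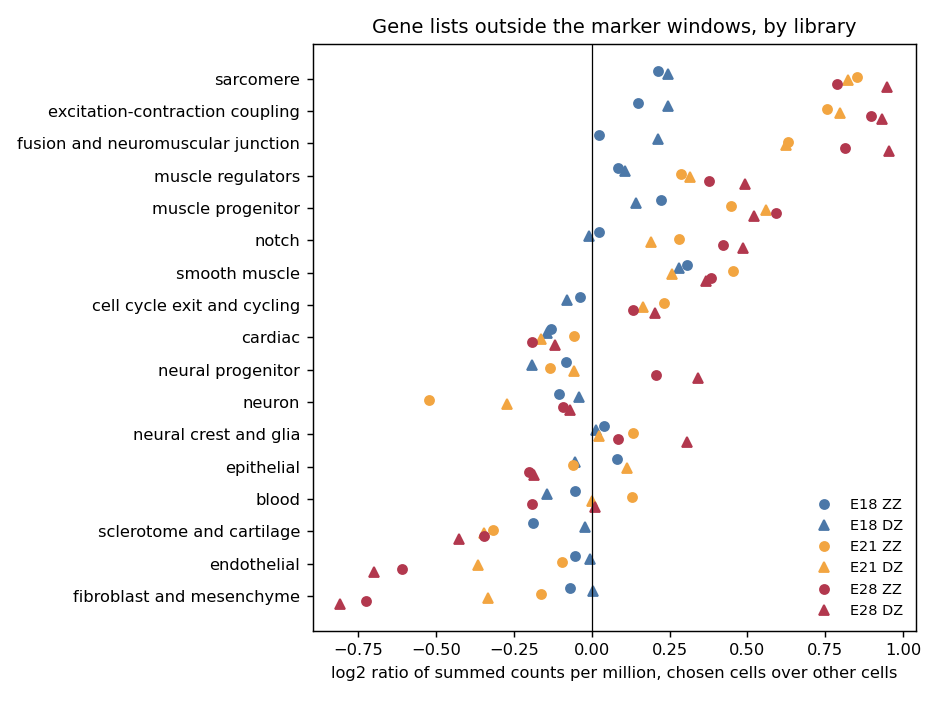
Ratio of the summed CPM of each gene list between muscle-open and other cells (log2, horizontal axis) in each library, with colours for the stages and circles for ZZ, triangles for DZ. Markers and their 100 kb were left out. The sarcomere, excitation-contraction and fusion lists sat near 0 to 0.25 at E18 and between 0.6 and 1.0 later, and the endothelial and fibroblast lists fell below −0.6 at E28.

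Among 23 further regulators of muscle, 15 were higher and none lower across stages, beside 9.82% and 6.95% of all windows (median 0.36; 7 without E21 DZ, 8 without E28 ZZ and 9 without E21 ZZ). TEAD4, a factor that binds DNA for the Hippo pathway and is induced in myoblasts, had 14.8 CPM against 6.72 and 15.4 against 3.63 at E18, 49.3 against 7.73 and 56.6 against 7.63 at E21, and 77.6 against 9.30 and 70.5 against 12.5 at E28. The classes did not overlap, and the difference was the widest of the list, 2.55 ± 0.21 (adjusted p = 4.3e-04), and 1.60 at E18 (adjusted p = 0.018). TEAD1 of the same family had 0.07 (adjusted p = 0.55). Within a stage NFIX was lower at E21 (−0.33), where 7.99% of all windows were, and MEF2A (−1.50) and PRDM1 (−0.48) at E28, where 17.5% were. MSC (musculin) and RBM24, an RNA-binding protein that controls muscle splicing, were each higher by 1.0, LMO7 by 0.95, and PITX3 and VGLL2 by 0.77; VGLL2 did not pass without E21 ZZ, E21 DZ or E28 ZZ. MEF2D was higher by 0.76 ± 0.12, whereas MEF2C had 0.09 (adjusted p = 0.44) and MEF2A −0.70 (adjusted p = 0.087). EYA1, a transcriptional coactivator upstream of the myogenic factors, was higher by 0.42 and did not pass without E21 ZZ, E21 DZ or E28 ZZ. A separate list held genes that the study names, among them FNDC5, EGR1 and RHOB. Of 7 tested, 1 was higher and 0 lower across stages, beside 9.82% and 6.95% of all windows, with a median of −0.02. The higher window was that of FNDC5, with 0.85 ± 0.16. The study reports FNDC5 RNA, not accessibility, as high in its myocytes, including those it took to be cardiac. In the fits that left 1 library out, EGR1 had −0.033 to −0.0067 and RHOB −0.057 to 0.030. For EGR1 and RHOB the study describes single peaks near the genes, compared among its myogenic cell types. Here whole windows are compared with all other cells of the tissue, so these values do not test that result.

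Progenitor genes were open too. Of 13, 8 were higher and none lower, beside 9.82% and 6.95% of all windows, with a median of 0.40 (4 without E21 DZ and 5 without E21 ZZ). PAX7, which marks muscle progenitors and satellite cells, had 226 CPM against 167.1 and 195 against 169 at E18, 281 against 180 and 265 against 136 at E21, and 252 against 119 and 287 against 140 at E28. It was higher in all 6 libraries, and the difference was 0.79 ± 0.12 (adjusted p = 0.0031); PAX3 was higher by 0.65 ± 0.12. MET, the receptor of migrating precursors, was higher by 0.88 ± 0.18, and FGFR4, a receptor of myoblasts, by 0.92 ± 0.23, in 4 and 5 of 6 libraries. MET did not pass without E21 DZ, and FGFR4 passed in none of the 4 fits that left out an E21 or E28 library. The dermomyotome factor DMRT2 was higher by 0.68, and LBX1 (0.21, adjusted p = 0.13) and TCF15 (−0.04, adjusted p = 0.80) did not pass.

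In the Notch pathway, which holds muscle progenitors back from differentiation, 4 of 8 genes were higher, beside 9.82% of all windows. The ligand DLL1 was higher by 0.75 ± 0.21 (adjusted p = 0.037), with −0.05 at E18 and 1.57 at E28, RBPJ, the DNA-binding factor of the pathway, by 0.47, the target HEYL by 0.67 and the receptor NOTCH3 by 0.44. RBPJ alone kept its call in each fit that left out 1 library; 1 gene passed without E21 DZ and 2 without any of E21 ZZ, E28 ZZ or E28 DZ. Of 10 genes of cell cycle exit and cycling 1 was higher, a share near the 9.82% of all windows: CCND3, a D-type cyclin of myoblasts, with 0.53 ± 0.15 (adjusted p = 0.035), which passed in no fit without an E21 or E28 library; it had −0.22 with promoters alone. CDKN1A, the inhibitor with which myoblasts leave the cycle, had 0.05 (adjusted p = 0.80), and MKI67, a gene of cycling cells, −0.12 (adjusted p = 0.41).

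The difference between muscle-open and other cells was larger at E28 than at E18 for most of these genes. The marker windows, which chose the cells, had 3.97 and 3.92 times the CPM of the other cells at E18 (ZZ then DZ). They had 4.78 and 5.80 times at E21 and 6.10 and 5.95 times at E28. The rule itself thus set the classes further apart at the later stages, and its part in the stage differences was not tested. A class by stage term found 3696 windows whose difference changed between E18 and E28 (16.7%), 982 between E18 and E21 (4.45%) and 893 between E21 and E28 (4.04%). Over all windows it grew in 8.38% from E18 to E28 and shrank in 8.36%. By this term the difference grew from E18 to E28 for 18 of 27 sarcomere genes and shrank for 1 (TNNT3), and grew for 10 of 15 coupling genes, 8 of 12 fusion and junction genes, 12 of 23 regulators (PRDM1 and NFIX shrank) and 5 of 13 progenitor genes (1 shrank, MEOX1). TTN's difference grew by 2.70 ± 0.28 on the log2 scale (adjusted p = 2.2e-07), ACTN2's by 2.60 ± 0.24, CDH15's by 1.65 ± 0.19, DLL1's by 1.63 ± 0.16, and ATP2A1's by 0.86 ± 0.16. Without E18 ZZ, 1545 windows passed for E28 against E18 and 73 for E21 against E18, and without E18 DZ 1674 and 148. For E21 against E18, 585 passed without E21 ZZ, 325 without E21 DZ and 1473 without E28 ZZ. For E28 against E21, 220 to 480 passed without any library other than E28 ZZ, and 1434 without E28 ZZ. A fit without 1 library leaves 1 library at that stage, so the spread in it comes from the other stages alone and these counts are a description. With 131 cells from each library the counts of the 3 comparisons were 2482, 517 and 557, and with a stricter rule of at least 5 windows and 5 times the mean share, which left 7 and 8 cells at E18, they were 316, 145 and 18.

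At E18 no sarcomere, fusion or progenitor gene passed by edgeR, with 8 of 27, 2 of 12 and 4 of 13 higher at an unadjusted p under 0.05 and none lower, beside 4.73% and 4.43% of all windows. The 25 windows that did pass there included TEAD4, ATP2A1, COX8H (a muscle form of a cytochrome oxidase subunit, 3.53 ± 0.53) and TRIM55, a ring finger protein of the sarcomere (1.25 ± 0.16), and 24 of the 25 were again higher at E21 and at E28. Of all windows 11.4% were higher at E21 and 16.4% at E28, and the 24 made up 0.951% and 0.661% of those. The median difference of the 25 was 1.25 at E18 and 2.27 at each later stage. The 1 lower window was that of NOP16 (−0.86).

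**Figure D4:**
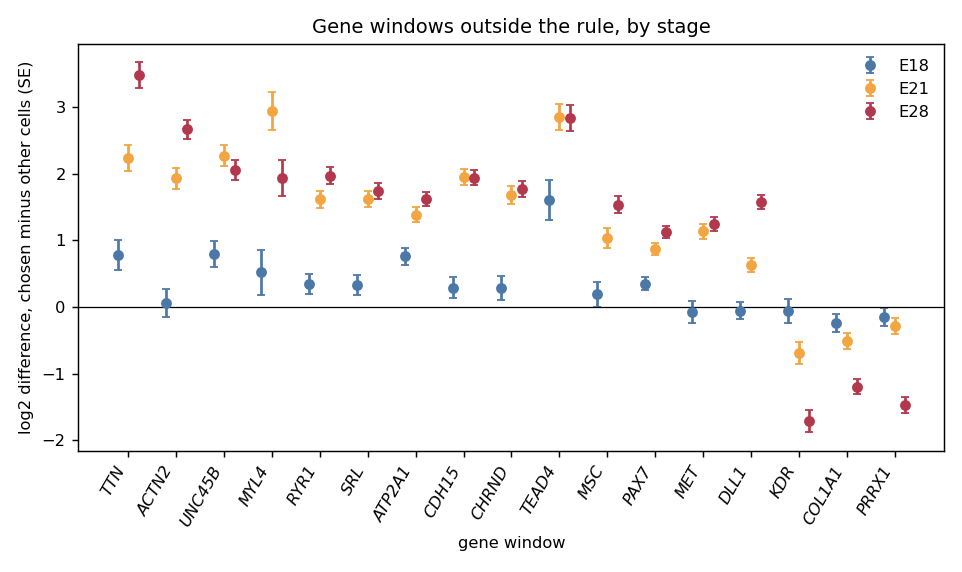
Log2 difference between muscle-open and other cells for 17 gene windows outside the rule at E18 (blue), E21 (orange) and E28 (red), with standard errors; the points of 1 gene are set side by side. Most muscle genes lay near 0 to 0.8 at E18 and between 1 and 3.5 later, with TEAD4 at 1.60 already at E18, while KDR, COL1A1 and PRRX1 fell below −1 at E28.

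The 10 windows with the largest differences above 0 included KLHL40, a kelch protein that stabilises thin filaments. KLHL40 had 4.93 CPM against 2.47 and 5.93 against 1.07 at E18, 36.9 against 3.40 and 47.1 against 6.22 at E21, and 53.2 against 3.32 and 74.3 against 7.34 at E28, a difference of 3.14 ± 0.30 (adjusted p = 6.2e-04). COX8H (3.29 ± 0.23), CELA2A (2.98 ± 0.38), an elastase gene, and DEFB114 (3.21 ± 0.30), a beta-defensin gene, stood beside it. The other 6 were unnamed loci, LOC100523213, LOC106509687, LOC106507990, LOC106507143, LOC106509068 and LOC110256266, with 2.86 to 3.65; all counts of LOC106509068 lay in peaks that the ALPK2 window also took. The 10 with the largest differences below 0 were all unnamed loci with −3.32 to −2.34, namely LOC100516110, LOC106507457, LOC106506390, LOC100523745, LOC110259429, LOC106504979, LOC110260989, LOC110257532, LOC110255630 and LOC106510064, and 4 of them had no count in the muscle-open cells of either E18 library. LOC106510064, LOC110257532 and LOC110259429 did not pass without E21 DZ or E28 ZZ, and LOC106510064 also not without E21 ZZ.

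Single regions gave the same picture at finer scale. A region was a set of overlapping peaks present in all 6 libraries, and 18668 of 78303 differed (23.8%), 9590 higher (12.2%) and 9078 lower (11.6%) in muscle-open cells. Of the higher regions 43.0% lay in introns, 33.4% outside genes and 22.4% on exons, against 35.7%, 31.3% and 31.6% of all regions, and 81.2% lay over 10 kb from the nearest protein-coding start, against 71.8% of all. The lower regions lay over 10 kb away in 86.9%. At E18 635 regions were higher (0.811%) and 182 lower (0.232%), at E21 10207 (13%) and 7878 (10.1%), and at E28 14467 (18.5%) and 15646 (20%). Of the 635 higher at E18, 615 were higher at E21 (96.9% of the E18 regions, 6.03% of those of E21) and 606 at E28 (95.4% and 4.19%), with a median of 1.92 at E18, 2.85 at E21 and 2.80 at E28. The difference changed between E18 and E28 in 11374 regions (14.5%), between E18 and E21 in 3154 (4.03%) and between E21 and E28 in 1480 (1.89%), and in 4818, 815 and 657 with 131 cells from each library. Without E21 DZ, E28 ZZ, E21 ZZ or E28 DZ, 10597, 10715, 11604 and 12152 regions passed.

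Among the regions higher in muscle-open cells, the one with the largest difference covered the start of TTN (chromosome 15, 84500372 to 84501800). It had 3.84 CPM against 1.28 and 8.30 against 1.05 at E18, 24.9 against 0.886 and 28.3 against 0.802 at E21, and 38.3 against 1.61 and 54.8 against 2.85 at E28. Every muscle-open value was above every other value, and the difference was 4.19 ± 0.41 (adjusted p = 2.7e-05). Next came an intron region of CELA2A with 4.93, 15.4, 35.3, 38.5, 55 and 75.2 CPM in the 6 libraries against 0.691 to 5.95 (4.10 ± 0.22), and an intron region of LSM12 with 3.56 to 45.7 against 0.366 to 3.71 (4.09 ± 0.23). An intron region of the non-coding gene LOC106506349, 231074 bases from the start of CPS1, had 4.05 ± 0.37. A region outside genes, at −74329 bases from the start of MEF2A, had 4.0 ± 0.35, although the MEF2A window itself was not higher. An intron region of MYH11 (3.99 ± 0.30) and an intron region of BIN1 (3.95 ± 0.25), which shapes the T-tubules, followed; the remaining 3 of the 10 were intron regions of LOC106506854, HIP1 and HK1. These 6 regions without an exon are printed because they carry the largest differences, each as its central 300 bases on the plus strand of Sscrofa11.1 from the RefSeq genome, with 2 kinds of E-box in capitals. The first kind is CAGCTG, which reads the same on both strands, and the second is CAGGTG on the plus strand or its reverse complement, shown as CACCTG.
CELA2A intron, chr6:74706018-74706317: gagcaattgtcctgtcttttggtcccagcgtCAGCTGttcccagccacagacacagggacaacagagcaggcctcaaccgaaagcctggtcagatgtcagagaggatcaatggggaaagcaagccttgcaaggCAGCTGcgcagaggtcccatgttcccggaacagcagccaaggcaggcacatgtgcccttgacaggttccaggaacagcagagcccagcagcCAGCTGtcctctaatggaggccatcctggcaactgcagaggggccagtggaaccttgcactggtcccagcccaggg
LSM12 intron, chr12:19144792-19145091: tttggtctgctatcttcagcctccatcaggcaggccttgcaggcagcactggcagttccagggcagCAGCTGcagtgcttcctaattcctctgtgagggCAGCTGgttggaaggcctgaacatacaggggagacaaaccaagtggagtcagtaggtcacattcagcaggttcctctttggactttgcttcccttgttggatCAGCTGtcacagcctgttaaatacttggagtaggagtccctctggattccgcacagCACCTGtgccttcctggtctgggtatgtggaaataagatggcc
LOC106506349 intron, chr15:113440963-113441262: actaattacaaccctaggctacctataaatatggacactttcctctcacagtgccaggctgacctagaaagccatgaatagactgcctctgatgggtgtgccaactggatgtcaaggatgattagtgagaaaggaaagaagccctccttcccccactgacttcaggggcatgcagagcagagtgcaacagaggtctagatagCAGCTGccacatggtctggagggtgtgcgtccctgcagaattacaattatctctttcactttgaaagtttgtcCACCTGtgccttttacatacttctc
upstream of MEF2A, chr1:138323792-138324091: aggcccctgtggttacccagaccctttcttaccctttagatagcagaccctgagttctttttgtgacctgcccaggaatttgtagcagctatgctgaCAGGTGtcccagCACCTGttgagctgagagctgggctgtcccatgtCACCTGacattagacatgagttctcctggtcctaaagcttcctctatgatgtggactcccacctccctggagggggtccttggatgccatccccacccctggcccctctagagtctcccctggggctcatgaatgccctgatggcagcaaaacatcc
MYH11 intron, chr3:7117623-7117922: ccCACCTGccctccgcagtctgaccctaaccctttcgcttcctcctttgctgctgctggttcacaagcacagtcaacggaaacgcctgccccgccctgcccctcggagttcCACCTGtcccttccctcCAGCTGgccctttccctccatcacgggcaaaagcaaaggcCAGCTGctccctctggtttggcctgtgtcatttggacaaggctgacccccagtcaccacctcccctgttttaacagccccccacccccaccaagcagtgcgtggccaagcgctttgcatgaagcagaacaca
BIN1 intron, chr15:25342571-25342870: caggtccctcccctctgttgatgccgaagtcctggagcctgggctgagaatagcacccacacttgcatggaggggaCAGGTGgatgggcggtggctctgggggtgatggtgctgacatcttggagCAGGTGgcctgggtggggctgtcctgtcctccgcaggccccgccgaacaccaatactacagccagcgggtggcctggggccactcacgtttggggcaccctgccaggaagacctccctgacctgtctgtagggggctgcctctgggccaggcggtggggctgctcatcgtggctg
The CELA2A region held 3 matches to CAGCTG, the LSM12 region 3 and 1 to CAGGTG, the LOC106506349 region 1 of each, and the MYH11 region 2 of each. The MEF2A and BIN1 regions held none to CAGCTG and 3 and 2 to CAGGTG, and none of the 6 held a match to the MEF2 motif. A match is a description of the letters and does not show that a factor binds there.

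The 10 regions with the largest differences below 0 had fitted values of −4.24 to −3.54. Of these, 6 lay outside genes, with HAO1, MOXD1, C4H8orf34, SULF1, LARS2 and SUCO as the nearest starts, and 4 in introns of VEPH1, ADAMTSL1, BABAM2 and RBMS3. The region nearest HAO1 had no count in muscle-open cells of either E18 library or of E21 ZZ and 0.268 to 0.905 CPM in the others, against 0.739 to 8.64 in other cells. With so few counts in muscle-open cells, at most 2.54 CPM in any of the 10 regions, these fitted values depend on the prior count and give no bound.

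Matches to the E-boxes CAGCTG and CAGGTG were more frequent in the higher than in the lower regions, and those to CATCTG differed little. The palindrome CAGCTG stood in the central 300 bases of 52.4% of the higher regions, 15.9% of the lower and 24.9% of all regions tested, on either strand. It stood in 76.4% of the 500 regions with the largest differences above 0 and in 12.4% of the 500 with the largest below 0. CAGGTG stood in 29.7% of the higher, 16.0% of the lower and 23.2% of all, and CATCTG in 29.6%, 28.6% and 24.6%. These E-boxes differ in their central letters and were counted separately. Matches to TEAD (GGAATG) stood in 22.4%, 21.3% and 18.9%, to RUNX (TGTGGT) in 18.4%, 17.9% and 16.8%, and to MEF2 in 3.91%, 3.97% and 3.19%, so these differed little between higher and lower regions. The lower regions held more matches to AP-1 (12% against 9.74%, TGANTCA). The GATA motif AGATAA stood in 13.4% of the lower and 11.2% of the higher regions. The homeobox motif TAATTA stood in 7.46% of the lower and 5.23% of the higher. The SOX motif ACAATG stood in 14.1% of the lower and 11.8% of the higher. The mean GC content was 52.2% in higher, 48.9% in lower and 53.0% in all regions. Within 4 classes of rising GC content, taken over intron and distal regions, CAGCTG stood in 41.3%, 56.2%, 60.2% and 58.9% of the higher and 17.2%, 26.3%, 31.2% and 32.8% of all regions. The regions called higher at E18 held CAGCTG in 65.5%, those called at E21 in 49.6% and those called at E28 in 44.6%; most of the E18 regions were also called later. The shares describe sets that were called with different power, and no test was run on them.

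The share of counts that fell in regions with CAGCTG, which uses no call, was 21.4% in muscle-open against 20.2% in other cells of E18 ZZ and 21.6% against 20.1% in E18 DZ. It was 24.0% against 20.1% and 24.8% against 19.9% at E21, and 25.2% against 19.7% and 25.2% against 19.9% at E28. Muscle-open cells were higher in each library, by 1.16 and 1.48 percentage points at E18 and by 3.88 to 5.45 later, and the other cells stayed between 19.7% and 20.2%. For the MEF2 motif the shares were 1.85% to 2.16% against 1.83% to 2.11%.

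**Figure D5:**
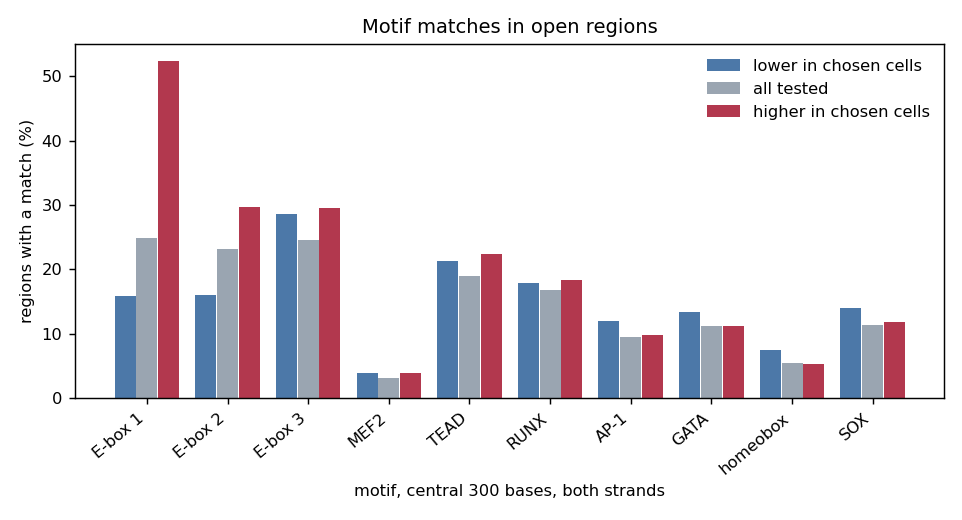
Percent of regions with at least 1 match in their central 300 bases, on either strand, for 10 motifs, in regions lower in muscle-open cells (blue), all regions tested (grey) and regions higher in muscle-open cells (red). E-box 1 is CAGCTG, E-box 2 CAGGTG and E-box 3 CATCTG; E-box 1 reached 52.4%, 24.9% and 15.9% in the higher, all and lower regions, and the other motifs differed less.

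The neighbourhood of the marker genes is described without support from it, since the cells were chosen on these genes. Within 100 kb of the marker windows and outside them, 45 of 156 regions were higher and 3 lower, beside 12.2% and 11.6% of all regions tested. Around MYF5 and MYF6, which lie side by side on chromosome 5, 6 of 8 regions were higher, around MYOG 9 of 19, around TNNI1 8 of 21 and around CKM none of 18. A region at −4832 bases from the start of MYOG had a mean of 98.3 CPM in muscle-open and 21.2 in other cells (2.15 ± 0.20). Near TNNI1, a region at −2352 bases from the start of TNNT2 (cardiac troponin T, also made in embryonic skeletal muscle) had 39.5 against 6.4 (2.80 ± 0.29). Regions at −26338, −37017 and −65288 bases from the start of MYOD1 were higher by 2.51 ± 0.26, 1.61 ± 0.24 and 3.18 ± 0.17, the last with 35.8 against 4.31 CPM. The central 300 bases of the last region, on the plus strand of Sscrofa11.1 and chosen after its values were seen, held CAGCTG at the 2 places in capitals.
upstream of MYOD1, chr2:41489375-41489674: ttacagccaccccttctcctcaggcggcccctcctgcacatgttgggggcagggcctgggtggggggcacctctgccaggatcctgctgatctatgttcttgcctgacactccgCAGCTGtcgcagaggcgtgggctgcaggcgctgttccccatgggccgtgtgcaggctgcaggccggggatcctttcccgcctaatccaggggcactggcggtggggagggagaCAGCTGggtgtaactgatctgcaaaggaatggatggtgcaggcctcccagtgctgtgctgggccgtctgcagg
When cells were chosen on the 6 regulator and junction windows alone, 6 of the 7 contractile and enzyme windows were higher, KLHL41 by 2.24 (adjusted p = 0.020), SMTNL1 by 2.17, SMYD1 by 1.78, ACTC1 by 1.39, TNNI1 by 1.06 and CKM by 0.92 (adjusted p = 0.035), and ACTA1 had 0.55 (adjusted p = 0.12). The 6 calls stood beside 2.93% of all windows higher under that choice. At E18 the differences were small (ZZ, then DZ, chosen against other cells in CPM). ACTC1 had 19.8 against 20.4 and 24.9 against 22.8, SMYD1 8.71 against 8.11 and 8.29 against 9.15. KLHL41 had 1.67 against 0.811 and 0.663 against 0.691, TNNI1 52.9 against 42.3 and 53.2 against 52.7. CKM had 27.8 against 23.9 and 27.2 against 23.0, SMTNL1 14.6 against 6.34 and 7.80 against 6.88. ACTA1 had 16.6 against 17.9 and 18.7 against 19.5. When cells were chosen on the 7 contractile and enzyme windows alone, 1 of the 6 other windows passed, CHRNA1, higher by 1.87 (adjusted p = 0.022). Under this choice 32 of 22254 windows passed, all higher. MYOG had 1.87 (adjusted p = 0.062), MYOD1 1.03 (adjusted p = 0.074), MYF5 0.92 (adjusted p = 0.064), MYF6 0.58 (adjusted p = 0.064) and MYMK 0.82 (adjusted p = 0.064).

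At E28, 4 of 7 endothelial, 6 of 9 fibroblast and mesenchyme, and 6 of 9 sclerotome and cartilage genes were lower, beside 17.5% of all windows, and 0, 1 and 0 were higher, beside 16.4%; across all stages 1, 4 and 2 were lower. KDR, a VEGF receptor of endothelium, had 41.6 CPM against 45.8 and 52.2 against 53.8 at E18, 23.1 against 36.3 and 19.2 against 35.0 at E21, and 18.99 against 50.03 and 9.25 against 42.7 at E28. Muscle-open cells were lower in each library, narrowly at E18, with a difference of −0.06 at E18, −0.69 at E21 and −1.71 at E28. PRRX1, a factor of limb and body wall mesenchyme, had −0.15, −0.28 and −1.47, and COL1A1, a chain of fibrillar collagen, −0.24, −0.52 and −1.19. Across stages KDR did not pass without E21 ZZ, E21 DZ or E28 ZZ, and PRRX1 not without any E21 or E28 library. Some members of these lists went the other way. PECAM1, an adhesion protein of endothelium, was higher at E21 (0.38) and had 0.21 across stages (adjusted p = 0.096), and SOX9, the cartilage factor, was higher at E21 (0.51) and had 0.28 (adjusted p = 0.073). Among fibroblast genes DCN was higher by 0.37 (adjusted p = 0.046, −0.051 with promoters alone), and it passed in no fit without an E21 or E28 library. By the class by stage term the difference was lower at E28 than at E18 in 4 endothelial, 5 fibroblast and 3 sclerotome and cartilage genes. It was higher in none of these lists, beside 8.36% of all windows lower and 8.38% higher. The composition of the other cells also changed between the stages, and its part in these values was not tested.

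Across stages 9.82% of all windows were higher and 6.95% lower, against which the counts of the other lists are to be read. Of 11 cardiac genes 1 was lower, a share near that of all windows, TBX5 (−0.54, adjusted p = 0.047, and past the threshold in no fit without an E21 or E28 library), and none was higher across stages by edgeR or at an unadjusted p under 0.05. At E28 TBX20 was higher (0.66, adjusted p = 0.0070). Of 6 smooth muscle genes 3 were higher, ACTA2 by 1.58 ± 0.17, with 29.6 to 100.1 CPM against 17.2 to 39.9, MYH11 by 0.48 (−0.22 with promoters alone) and LMOD1 by 0.41. ACTA2 is also made in embryonic skeletal muscle, and CNN1, TAGLN and MYOCD had 0.03, 0.09 and −0.02. In the fits that left 1 library out, ACTA2 had 1.45 to 1.70, MYH11 0.44 to 0.51 and LMOD1 0.38 to 0.45. At E18 3 of the 6 were higher at an unadjusted p under 0.05 by edgeR, beside 8 of 27 sarcomere genes and 4.73% of all windows. Among neural lists NES, an intermediate filament gene also used by myoblasts, was higher (0.48), and the neuron genes STMN2 (−0.70) and ELAVL4 (−0.37, and 0.11 with promoters alone) were lower. In neural crest and glia ERBB3 (0.33) was higher and in blood SPI1 (−0.35) was lower. NES and ERBB3 passed in no fit without an E21 or E28 library, ELAVL4 not without either E21 library, and SPI1 only without E18 ZZ among the fits that left 1 out. No epithelial gene of 7 passed across stages by edgeR, with 1 lower at an unadjusted p under 0.05. CDH1 was higher (0.68) and GRHL2 lower (−0.61) at E21, and ESRP1 higher (0.48) and CLDN6 lower (−0.55) at E28. As a check for mixed droplets, the same kind of rule with the lists of other tissues was met by 5.96% and 8.40% of the muscle-open E18 cells, by 7.09% and 4.14% of those of E21 and by 3.52% and 3.97% of those of E28, against 5.69% to 9.06% of other cells of matched depth. With the smooth muscle list alone it was met by 0.662% and 1.53% of the muscle-open cells of E18 ZZ and E18 DZ, against 0.662% and 0.254% of other cells of matched depth. In the E21 libraries, ZZ first, it was met by 3.54% and 0.752%, against 0.787% and 0.877%, and in the E28 libraries by 1.01% and 1.55%, against 0.754% and 0.69%. No doublet caller was run, and without these cells 3731 gene windows differed.

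DZ and ZZ embryos were compared by a class by breed term over the 3 stages. The difference between muscle-open and other cells differed between the breeds in 3 windows (0.0136%), with 929 at an unadjusted p under 0.05 and 0 by DESeq2. VIT, which codes for a matrix protein, had 72.3 CPM against 70.0 in E18 ZZ and 61.1 against 77.8 in E18 DZ, and 75.6 against 91.9 in E28 ZZ and 37.4 against 150.9 in E28 DZ. Its difference was lower in DZ by −0.87 ± 0.15 (adjusted p = 1.6e-04). LOC110260034, which overlaps VIT on the opposite strand, had −1.24 ± 0.26 (adjusted p = 0.020), and LOC106510624 had 1.91 ± 0.38 (adjusted p = 0.0045). When 1 library was left out, 0 windows passed without an E18 or an E28 library and 1 without either E21 library. No muscle gene named above was among the 3.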

How the data were processed

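Nuclei of dissociated somites and myotomes were profiled by single-cell ATAC-seq. The authors deposited, for each library, a matrix of counts of Tn5 cut sites per peak and barcode, with peaks called in each library by Cell Ranger ATAC 1.2.0 on the Sscrofa11 genome; the labels also name Seurat 3.1.1 and Signac 0.2.2. Peaks of the 6 libraries were merged here into 294825 regions, of which 78533 lay in all 6. A gene window took the peaks that overlap a gene body or its 2 kb upstream. Of 64439 deposited barcodes, 58809 had 2000 to 30000 counts; the study's filters on mitochondrial reads, start-site enrichment, nucleosome signal and reads in peaks were not applied.

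Counts were summed per library and class and fitted with edgeR 4.0.16 in R 4.3.3 (glmQLFit and glmQLFTest, TMM, filterByExpr, library as a block; a class by stage and a class by breed term; adjusted p under 0.05 by Benjamini-Hochberg). Features within 100 kb of a marker window were left out of the fits. DESeq2 1.42.0, other filters, other cell limits, other rules for the cells and the fit without the block were alternatives. On simulated counts the all-stage fit found 48 of 50 windows changed 1.5-fold and all 50 changed 2-fold, with 10 false calls among 22078. The simulation used a fixed dispersion, gave each window the same change in every library and changed only windows above a minimum mean count. In the data many differences varied with stage, so these figures check the code and do not give the power of the fit.

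The cells, gene lists and alternatives were chosen with earlier results of these data known. Named were the markers, the genes of the lists, the 10 windows and the 10 regions with the largest differences in each direction, the E18 calls and the breed calls. Replicates are pools of embryos, 1 per stage and breed. With the library as a block, p-values of the all-stage fit measure how the difference between the classes varied over libraries of unlike stage, tissue and breed. Those within a stage and of the class by stage term rest on how it varied between the ZZ and DZ libraries of a stage. No p-value therefore measures the spread between pools of the same stage and breed. Summed counts of muscle-open cells ranged from 1685809 to 7458648 and those of other cells from 84233589 to 131212833.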

Additional observations from a re-analysis of the deposited data

Results flagged for a closer look

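The difference between muscle-open and other cells depended on the stage, by the class by stage terms of edgeR. It changed between E18 and E28 in 3696 gene windows and 11374 regions, between E18 and E21 in 982 windows and 3154 regions, and between E21 and E28 in 893 windows and 1480 regions. From E18 to E28 it grew in 1851 of 22078 windows (8.38%) and shrank in 1845 (8.36%). It grew in 18 of 27 sarcomere genes and shrank in 1, grew in 10 of 15 coupling genes and shrank in 0, and grew in 8 of 12 fusion and junction genes and shrank in 0. It grew in 12 of 23 regulators and shrank in 2, and grew in 5 of 13 progenitor genes and shrank in 1. It was lower at E28 in 4 of 7 endothelial, 5 of 9 fibroblast and 3 of 9 sclerotome and cartilage genes and higher in 0 of these lists. Between the breeds it differed in 3 windows. Muscle-open cells were fewest at E18 (1.34% and 1.30% of the cells), and E28 libraries were of myotomes, so stage and tissue cannot be told apart. The libraries also differed in called peaks, with 217138 and 199846 at E18 against 131975 and 137769 at E28, and the part of this was not tested. In the marker windows muscle-open cells had 3.97 and 3.92 times the CPM of other cells at E18, against 6.10 and 5.95 times at E28. The part of this gap in the choice of cells was not tested either.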

How the results depend on the processing

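The regions that differed numbered 18668, and 10597 to 21964 when 1 library was left out. Without the library as a block they numbered 8344, and that fit ignores that both classes come from the same library. With cells chosen on the regulator and junction or on the contractile and enzyme markers alone they numbered 9299 and 9406. With peaks in at least 3 libraries they numbered 29037. The gene windows numbered 3702, and 1084 to 4535, 714, 765 and 32 under the same changes, and 1947 with promoters alone. For E28 against E18 (3696 windows) a stricter rule gave 316 and leaving out 1 library 1545 to 3844. For E21 against E18 (982) other cells matched on depth gave 614, the stricter rule 145, the 2 marker sets 382 and 506, an equal number of cells 517 and leaving out 1 library 73 to 1473. For E28 against E21 (893) these gave 508, 18, 1806 (contractile set), 557 and 220 to 1434. For the breeds (3), 4000 to 60000 counts gave 1, other cells free of barcodes meeting 1 condition 6, leaving out 1 library 0 to 1, and a count in every sum required, depth matching, the stricter rule, each marker set and DESeq2 0. An equal number of cells was chosen after seeing the data; it gave 4818, 815 and 657 regions for the 3 stage comparisons, 354, 10607 and 18609 regions at E18, E21 and E28, and 4 and 2779 windows at E18 and E21. The share of cells moved under the stricter rule to 0.0623%, 0.0794%, 0.517%, 0.974%, 1.26% and 1.47%, under a looser one (3 windows, 3 times) to 2.27%, 2.21%, 3.77%, 4.05%, 5.66% and 7.30%, and after thinning to 0.631%, 0.538%, 1.29%, 1.39%, 2.52% and 5.64%. A common mean share gave 2.17% in E21 DZ and 8.74% in E28 DZ, and 4000 to 60000 counts 3.46%, 4.96% and 6.96% in E21 DZ, E28 ZZ and E28 DZ. The regulator and junction markers alone gave 4.73%, 4.78%, 4.88%, 5.21%, 6.34% and 6.61%. With the contractile and enzyme markers alone the shares were 5.75%, 5.08%, 5.82%, 5.18%, 5.76% and 8.19%, and the stages overlapped. CAGCTG stood in 66.3%, 24.8% and 35.9% of higher, lower and all regions over 500 bases, and in 76.4% and 12.4% of the 500 largest. With promoters alone 8 values that passed in at least 1 of the 2 fits changed sign: MYOM2 −1.56, CACNG1 −0.97, CASQ2 1.70, TCF12 −0.077, CCND3 −0.22, MYH11 −0.22, DCN −0.051 and ELAVL4 0.11. Of 3297 values of single items, 2907 kept their side of the threshold and 328 lost the call. Values that passed in neither fit could change sign and still be among the 2907. The causes were not tested.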
